A study of Homo sapiens with 6 samples.

Results

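The Sprouty, SPRED and ETV feedback genes comprise 8 genes, SPRY1, SPRY2, SPRY4, SPRED1, SPRED2, ETV4, ETV5 and PHLDA1, measured in MCF10A, an immortalised line of human breast epithelium that does not form tumours. Their members were all probe sets of the array that the platform annotation assigns to 1 of these symbols alone, 23 of 54675 probe sets in all. Total RNA came from 3 cultures of a clone that stably expresses an shRNA against FRY (shFRY) and from 3 cultures of a clone that stably expresses a non-targeting shRNA (control). Both clones came from MCF10A cells by puromycin selection, and both grew with insulin at 10 μg/ml, hydrocortisone at 5 μg/ml, epidermal growth factor at 20 ng/ml, pituitary extract, gentamicin and amphotericin B until RNA was taken at 70% confluence. FRY is the human counterpart of Drosophila furry, a large protein that binds NDR kinases. Since each construct stands for 1 selected clone, the effect of the shRNA and a difference between clones cannot be told apart. The cultures of a clone differed in passage number, and p-values measure only the spread between them.

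When a growth factor activates a receptor tyrosine kinase, RAS and the RAF, MEK and ERK kinases pass the signal to the nucleus, where ERK switches on genes that in turn damp the pathway. Sprouty proteins and their relatives, the SPRED proteins, share a cysteine-rich domain and act between receptor and RAF, and SPRED proteins bring the RAS inhibitor neurofibromin to the membrane. ETV4 and ETV5 are ETS transcription factors of the PEA3 group whose mRNAs are widely used as a readout of ERK output, and PHLDA1 is an early growth factor response gene that is also induced by cell stress. MCF10A cells are grown with epidermal growth factor, which activates one such receptor. ERK activity itself was not measured here.

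FRY signal was lower on average in shFRY samples at all 4 of its probe sets, of which 1 passed the threshold. At 204072_s_at it was 2.88, 3.31 and 3.14 in the shFRY samples and 4.23, 3.55 and 3.81 in the control samples (log2 signal; difference -0.75, SE 0.19, limma adjusted p = 0.0223). That call was lost without shFRY sample 1 or 3 or control sample 1 or 3 (adjusted p up to 0.0712). At 214319_at, the brightest FRY probe set, the groups overlapped. The signals there were 4.19, 4.79 and 5.09 in shFRY and 4.87, 5.12 and 5.54 in control samples (difference -0.49, limma adjusted p = 0.203). Samples of 1 group correlated at r = 0.992 to 0.995 over all probe sets. All 4 of the analysed basal mammary markers and all 4 epithelial markers were above the median probe set in every sample. So were GATA3 of the luminal, COL1A1 and DCN of the fibroblast and PECAM1 of the endothelial markers, so this does not single out epithelium. Several markers moved with the groups. Of the basal markers KRT14 (2.92), LAMB3 (1.71) and EGFR (0.75) were higher in shFRY and KRT5 did not pass (limma, log2), with a mean log2 signal per sample of 11.31 to 11.46 in shFRY and 10.00 to 10.02 in control samples. Of the epithelial markers CDH1 (0.37) was higher, KRT8 (-0.93) and KRT18 (-0.37) were lower and EPCAM did not pass, with means of 10.09 to 10.13 in shFRY and 10.29 to 10.38 in control samples. Of 3 hormone receptor luminal markers GATA3 (-0.58) was lower, PGR (0.35) was higher and ESR1 did not pass. Their means were 3.69 to 3.82 in shFRY and 3.75 to 3.86 in control samples. PGR was near the bottom of the array's range, at 1.70, 1.69 and 1.69 in shFRY and 1.39, 1.33 and 1.29 in control samples. Of the 6 fibroblast markers 2 were lower in shFRY, LUM (-3.94) and DCN (-2.79), and the others did not pass. The mean log2 signal of the 6 per sample was 2.90 to 2.98 in shFRY and 3.95 to 4.19 in control samples. Of 5 immune and 4 endothelial markers 1 each was lower, PTPRC (-1.06) and KDR (-2.45), and 0 of 3 adipocyte markers moved. The beta-actin 3′ minus 5′ difference, a measure of RNA length, was 2.88, 2.89 and 2.84 in shFRY samples and 2.33, 2.52 and 2.71 in control samples. It therefore moved with every result given here. The same difference for GAPDH overlapped between the groups. It was -0.10, -0.05 and -0.08 in shFRY samples and -0.08, -0.10 and -0.08 in control samples. A fit that carries the beta-actin difference as a covariate is quoted where it ends a call. The part of the basal, epithelial, luminal, fibroblast, immune and endothelial markers in these results was not tested.

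Most member probe sets were higher in shFRY cells, and SPRY1 was the exception. Of the 23 member probe sets, 13 rose (56.5%), against 10.9% of all probe sets tested, and 1 fell, against 12.2% of all. PHLDA1 alone gave 6 of the 13 rises. Of the 23, 22 had a mean signal above that of the median probe set. In a separate fit of only the probe sets brighter than the median, with its own adjustment, 5855 of 11859 genes passed in either direction. In the main fit 5889 of all 19775 passed, a count from another fit that does not contain the first. Of the 22 member probe sets in the separate fit, 15 rose and 1 fell. The shares over all probe sets are therefore not those of probe sets as bright as the members. The median difference, shFRY minus control, was 0.42 over the member probe sets and 0.03 over all probe sets (log2). In 17 of the 23, every shFRY sample lay above every control sample, as at 20.2% of all probe sets, in 1 every shFRY sample lay below, as at 19% of all, and in 5 the groups overlapped. Without control sample 2 or control sample 3 the number that rose was 8. With the beta-actin covariate it was 6, and the 1 fall was kept. With 1 probe set per gene, 5 of the 8 genes rose, against 13.7% of all genes, 1 fell, against 16% of all, and SPRED1 and SPRED2 did not pass. Without shFRY sample 3 or any 1 control sample, 3 of the 8 rose, and with the beta-actin covariate 1 did.

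**Figure D1:**
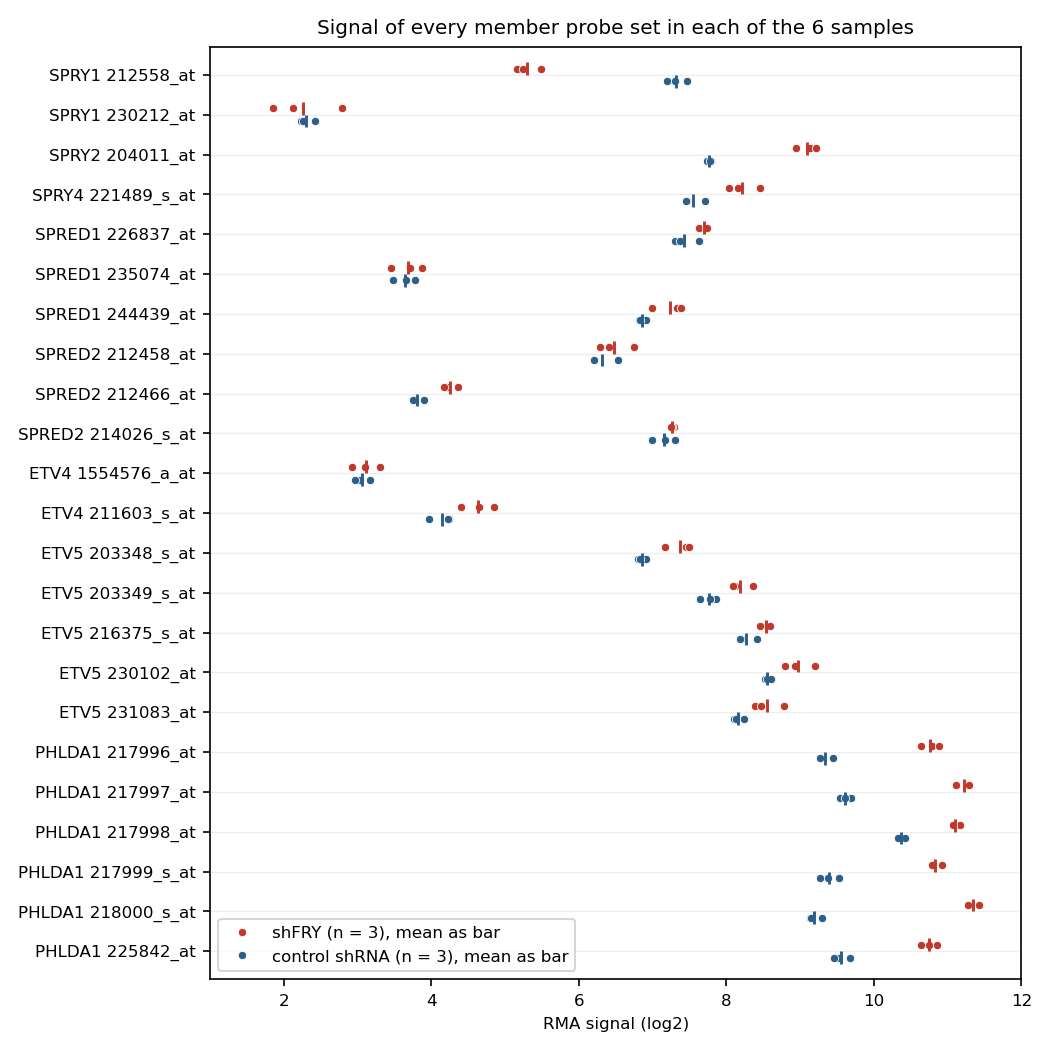
Log2 RMA signal (horizontal axis) of the 23 member probe sets (rows) in each of the 3 shFRY samples (red, upper points) and 3 control samples (blue, lower points), with group means as short bars. At 212558_at of SPRY1 the shFRY samples lie well below the control samples, and at every probe set of PHLDA1 they lie above.

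SPRY1 and SPRY2 are paralogs that both inhibit receptor tyrosine kinase signalling, and their mRNA signals changed in opposite directions in shFRY cells, so the stretches before their transcription starts are shown together with that of PHLDA1, the gene with the most probe sets that rose. The sequences are the 250 bases before the outermost start of each gene, from RefSeq on GRCh38.p14. Capitals mark GGAAG or its reverse complement CTTCC, a common form of the core that ETS factors such as ETV4 and ETV5 bind.
SPRY1, chr4:123396545-123396794, plus strand: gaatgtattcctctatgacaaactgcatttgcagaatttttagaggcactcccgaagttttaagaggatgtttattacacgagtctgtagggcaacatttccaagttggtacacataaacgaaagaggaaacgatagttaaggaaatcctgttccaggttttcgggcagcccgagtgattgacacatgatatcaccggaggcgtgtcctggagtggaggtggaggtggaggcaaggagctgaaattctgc
SPRY2, chr13:80341127-80341376, minus strand: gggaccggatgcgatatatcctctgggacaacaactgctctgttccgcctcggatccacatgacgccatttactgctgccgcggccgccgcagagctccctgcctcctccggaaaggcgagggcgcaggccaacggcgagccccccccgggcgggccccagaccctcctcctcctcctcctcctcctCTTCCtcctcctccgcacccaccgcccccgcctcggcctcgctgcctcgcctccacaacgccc
PHLDA1, chr12:76031777-76032026, minus strand: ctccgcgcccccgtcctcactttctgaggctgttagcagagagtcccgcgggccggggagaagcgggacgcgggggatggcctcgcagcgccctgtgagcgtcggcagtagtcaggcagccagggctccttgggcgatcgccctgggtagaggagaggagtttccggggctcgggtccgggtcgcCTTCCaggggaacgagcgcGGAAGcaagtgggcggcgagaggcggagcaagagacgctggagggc
GGAAG, searched on both strands, stood 0 times in the SPRY1 stretch, 1 time in that of SPRY2 and 2 times in that of PHLDA1. The shorter GGAA or its reverse complement TTCC, not marked or counted here, stands in each of these stretches, that of SPRY1 included. GGAAG is a frequent motif: 65.1% of 35116 such stretches before RefSeq starts hold it, as did 8 of the 10 stretches found for 6 of the members. Another start of SPRY1, with its stretch at chr4:123398136-123398385, had 3 matches. The longer ETS site CCGGAAGT, held by 3.42% of all stretches, the AP-1 site TGACTCA or TGAGTCA, held by 4.20%, and the CArG box of serum response factor, held by 1.16%, were in none of these 10. Also searched were TGACG, held by 21.2% of all stretches, and TATAAA, held by 10.7%. TGACG stood 1 time in the SPRY2 stretch shown and 1 time in that of SPRY4, and TATAAA 1 time in a stretch of SPRED2. The outermost SPRY1 stretch had a GC content of 45.6% and 8 CpG dinucleotides, against 70.4% and 23 for SPRY2 and 70.4% and 26 for PHLDA1. The median over all stretches was 58.0% and 11.

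SPRY1, which encodes a Sprouty inhibitor of receptor tyrosine kinase signalling, fell in shFRY cells. Its probe set 212558_at had 5.48, 5.16 and 5.24 in the shFRY samples and 7.20, 7.30 and 7.46 in the control samples (log2 signal). The groups were far apart, with the highest shFRY sample well under the lowest control sample. The difference was -2.03 (SE 0.13, 95% confidence interval -2.32 to -1.73, limma adjusted p = 2.91e-05), a signal 4.07-fold lower. With 1 sample left out it stayed between -2.12 and -1.95, and with the beta-actin covariate it was -2.27 (limma adjusted p = 0.00625). The other SPRY1 probe set, 230212_at, was dim and had 2.13, 2.78 and 1.85 in shFRY and 2.43, 2.23 and 2.26 in control samples. The groups overlapped there and the difference was -0.05 (95% confidence interval -0.55 to 0.45, limma adjusted p = 0.900). When both probe sets of SPRY1 were averaged, the gene differed by -1.04 (limma adjusted p = 0.000326).

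SPRY2, the Sprouty paralog best known for binding the ubiquitin ligase CBL, rose. Its single probe set had 9.13, 9.22 and 8.94 in the shFRY samples and 7.79, 7.73 and 7.78 in the control samples (log2 signal). The control samples were close together, and all shFRY samples were above them. The difference was 1.33 (SE 0.11, 95% confidence interval 1.08 to 1.58, limma adjusted p = 0.000115), or 2.51-fold, and it passed in every alternative tried.

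SPRY4, another Sprouty inhibitor, rose by less. Its single probe set, 221489_s_at, had 8.04, 8.16 and 8.45 in the shFRY samples and 7.47, 7.71 and 7.46 in the control samples (log2 signal). The groups did not overlap, although the lowest shFRY sample and the highest control sample were close. The difference was 0.67 (SE 0.14, 95% confidence interval 0.35 to 0.99, limma adjusted p = 0.00970), or 1.59-fold. With the beta-actin covariate it was 0.74 and did not pass (limma adjusted p = 0.249). SPRY4-IT1, a noncoding transcript from within the SPRY4 gene that was chosen after its values were seen, fell at both of its probe sets. At 1566968_at it had 4.69, 5.03 and 4.80 in shFRY and 5.48, 5.48 and 5.38 in control samples, a difference of -0.61 (limma adjusted p = 0.00748). At 1566967_at the difference was -0.54 (limma adjusted p = 0.0371), again without overlap. The alternatives were not run for SPRY4-IT1.

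Whether the family members changed unequally was tested on the difference between a pair of genes within each sample, with 1 probe set per gene. SPRY1 minus SPRY2 was -3.80 ± 0.22 in the shFRY samples and -0.45 ± 0.14 in the control samples (mean ± SD of 3 samples each, log2), a shift of -3.36. A two-sided exact permutation test gave p = 0.1, or 0.167 adjusted over 5 pairs. These groups did not overlap, and 0.1 is the smallest p that 3 against 3 samples can give, so no pair could pass. SPRY1 minus SPRY4 shifted by -2.70 and SPRY2 minus SPRY4 by 0.66, both again without overlap (exact permutation p = 0.1 each). The SPRED and ETV pairs overlapped between the groups, and at this number of samples neither equal nor unequal change can be read from them. SPRED1 minus SPRED2 was 0.43 ± 0.08 in shFRY and 0.28 ± 0.31 in control samples (SD, n = 3 each; exact permutation p = 0.4), and ETV4 minus ETV5 was -4.35 ± 0.20 in shFRY and -4.41 ± 0.20 in control samples (SD, n = 3 each; exact permutation p = 0.7). Both of these shifts turned negative when a gene's probe sets were averaged (-0.015 and -0.13). That of ETV was also negative without probe sets ending in _s_at or _x_at (-0.37).

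**Figure D2:**
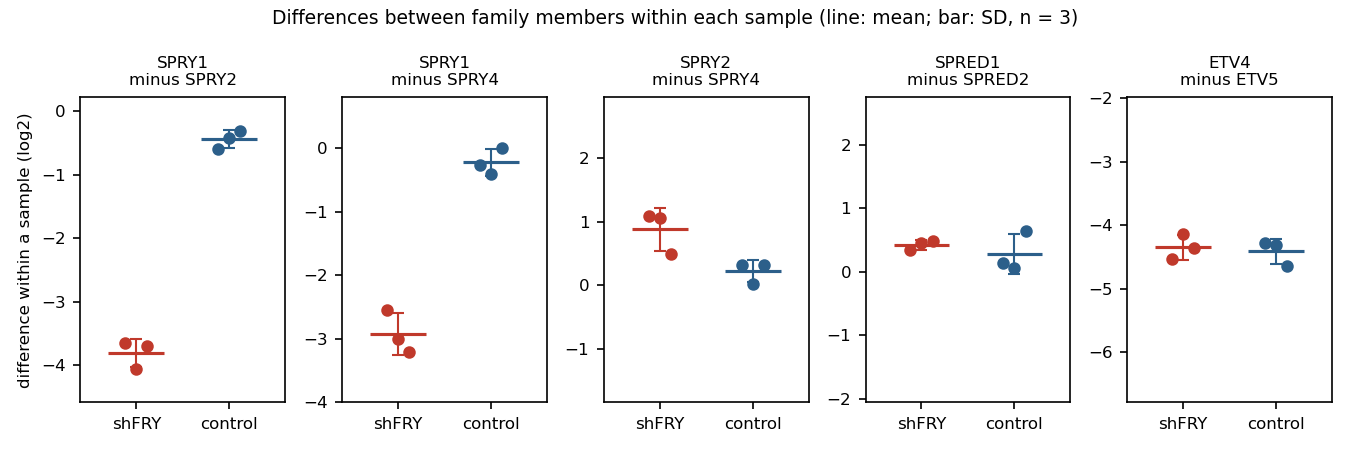
Difference between 2 family members within each sample (vertical axis, log2; every panel spans the same range) in the shFRY (red) and control (blue) groups, with means as lines and SD as bars (n = 3). Both pairs with SPRY1 lie lower in shFRY without overlap, SPRY2 minus SPRY4 lies higher, and the SPRED and ETV pairs overlap.

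The SPRED genes, which encode membrane-anchored inhibitors that act with neurofibromin, moved little. SPRED1 passed at 0 of 3 probe sets. At 226837_at it had 7.63, 7.72 and 7.74 in shFRY and 7.30, 7.37 and 7.63 in control samples, a difference of 0.26 (95% confidence interval -0.01 to 0.54, limma adjusted p = 0.160). At 244439_at the shFRY samples had 7.33, 6.99 and 7.38 and the control samples 6.91, 6.82 and 6.83. The groups did not overlap at either of these, and the difference of 0.38 at 244439_at missed the threshold (95% confidence interval 0.09 to 0.68, limma adjusted p = 0.0665). It passed without shFRY sample 2 (0.50, limma adjusted p = 0.0226), with trend and robust options (limma adjusted p = 0.0350) and among only the brighter probe sets (limma adjusted p = 0.0375). At the dimmer 235074_at the groups overlapped (0.04). The intervals therefore allow rises of SPRED1 up to 0.68.

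SPRED2 rose at 1 of 3 probe sets, the dimmest of them. At 212466_at it had 4.36, 4.22 and 4.17 in shFRY and 3.90, 3.77 and 3.75 in control samples. The groups did not overlap, and the difference was 0.45 (SE 0.11, limma adjusted p = 0.0185). The call was lost without shFRY sample 1, control sample 2 or control sample 3 (limma adjusted p of 0.0560, 0.0651 and 0.0669). It was also lost with trend and robust options (limma adjusted p = 0.0546). With the beta-actin difference as a covariate it was lost too, with a difference of 0.57 (SE 0.21, limma adjusted p = 0.233). At 214026_s_at and 212458_at the groups overlapped, with differences of 0.11 and 0.17 and upper 95% bounds of 0.37 and 0.52.

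ETV5, a PEA3 factor, was higher in shFRY cells at all 5 of its probe sets by a small amount, and 3 of them passed. In all 5 the groups did not overlap, and the differences ran from 0.26 to 0.52. At 203348_s_at, the widest, ETV5 had 7.17, 7.45 and 7.50 in shFRY and 6.91, 6.81 and 6.83 in control samples (0.52, SE 0.12, limma adjusted p = 0.0153). At 230102_at, which represented the gene, it had 8.93, 8.79 and 9.21 in shFRY and 8.52, 8.55 and 8.60 in control samples (0.42, SE 0.13, limma adjusted p = 0.0480). The spread within the shFRY samples was close to the distance to the control samples at this probe set. At 203349_s_at the difference was 0.42 (limma adjusted p = 0.0352). At 216375_s_at and 231083_at the differences were 0.26 and 0.39 (limma adjusted p = 0.135 and 0.0636).

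ETV4, the other PEA3 factor of the group, was much dimmer on this array. At 211603_s_at it had 4.40, 4.65 and 4.84 in shFRY and 4.24, 4.23 and 3.96 in control samples, and it rose by 0.49 (SE 0.14, limma adjusted p = 0.0432). All shFRY samples were above all control samples, the closest of them narrowly. At 1554576_a_at, near the median of the array, the groups overlapped at 2.92, 3.30 and 3.11 in shFRY and 3.04, 2.97 and 3.16 in control samples (0.05, limma adjusted p = 0.815).

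The ETV calls lay close to the threshold and were lost in several alternatives. The call at 211603_s_at of ETV4 was kept only without shFRY sample 1, and was lost without any of the other 5 (limma adjusted p up to 0.137). Those at 230102_at and 203349_s_at of ETV5 were kept only without shFRY sample 2 (limma adjusted p up to 0.129 and 0.117 without any of the others). That at 203348_s_at was lost without shFRY sample 2, control sample 2 or control sample 3 (limma adjusted p up to 0.0561). With all samples, 230102_at of ETV5 was also lost under another quantile normalization, with array weights and without _s_at or _x_at probe sets (limma adjusted p of 0.0628, 0.0536 and 0.0607), and 211603_s_at of ETV4 with trend and robust options (0.0583). With the replicate number as a block, 211603_s_at of ETV4 and 203349_s_at and 230102_at of ETV5 were lost (limma adjusted p of 0.0841, 0.0580 and 0.0611). That at 203348_s_at was kept there (0.0373). In the other direction, 231083_at of ETV5 passed with trend and robust options and among only the brighter probe sets (limma adjusted p of 0.0172 and 0.0361). With the beta-actin covariate, ETV4 at 211603_s_at was 0.79 and ETV5 was 0.62 at 203348_s_at, 0.34 at 203349_s_at and 0.41 at 230102_at, and none of these passed (limma adjusted p in that order 0.188, 0.254, 0.557 and 0.509).

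PHLDA1, which encodes a pleckstrin homology-like domain protein, rose at all 6 of its probe sets. At 218000_s_at it had 11.43, 11.32 and 11.28 in shFRY and 9.30, 9.13 and 9.15 in control samples (log2 signal). The samples of each group were close together there, and the groups were far apart. The difference was 2.15 (SE 0.11, 95% confidence interval 1.91 to 2.39, limma adjusted p = 8.72e-06), or 4.43-fold.

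The other PHLDA1 probe sets differed less. At 217997_at the signals were 11.11, 11.26 and 11.29 in shFRY and 9.54, 9.69 and 9.61 in control samples, a difference of 1.61. At 217999_s_at and 217996_at the differences were 1.45 and 1.43, and at 225842_at 1.19. The smallest difference was at 217998_at, whose mean signal was the highest of the 6 and which therefore represented the gene. It had 11.07, 11.16 and 11.07 in shFRY and 10.37, 10.42 and 10.33 in control samples, a difference of 0.73 (SE 0.10, 95% confidence interval 0.50 to 0.96, limma adjusted p = 0.00122). The 95% confidence intervals of 217998_at and 218000_s_at did not overlap. With all 6 averaged, the PHLDA1 gene differed by 1.43. All 6 passed with any 1 sample left out, and with the beta-actin covariate only 217998_at was lost (0.75, limma adjusted p = 0.110).

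**Figure D3:**
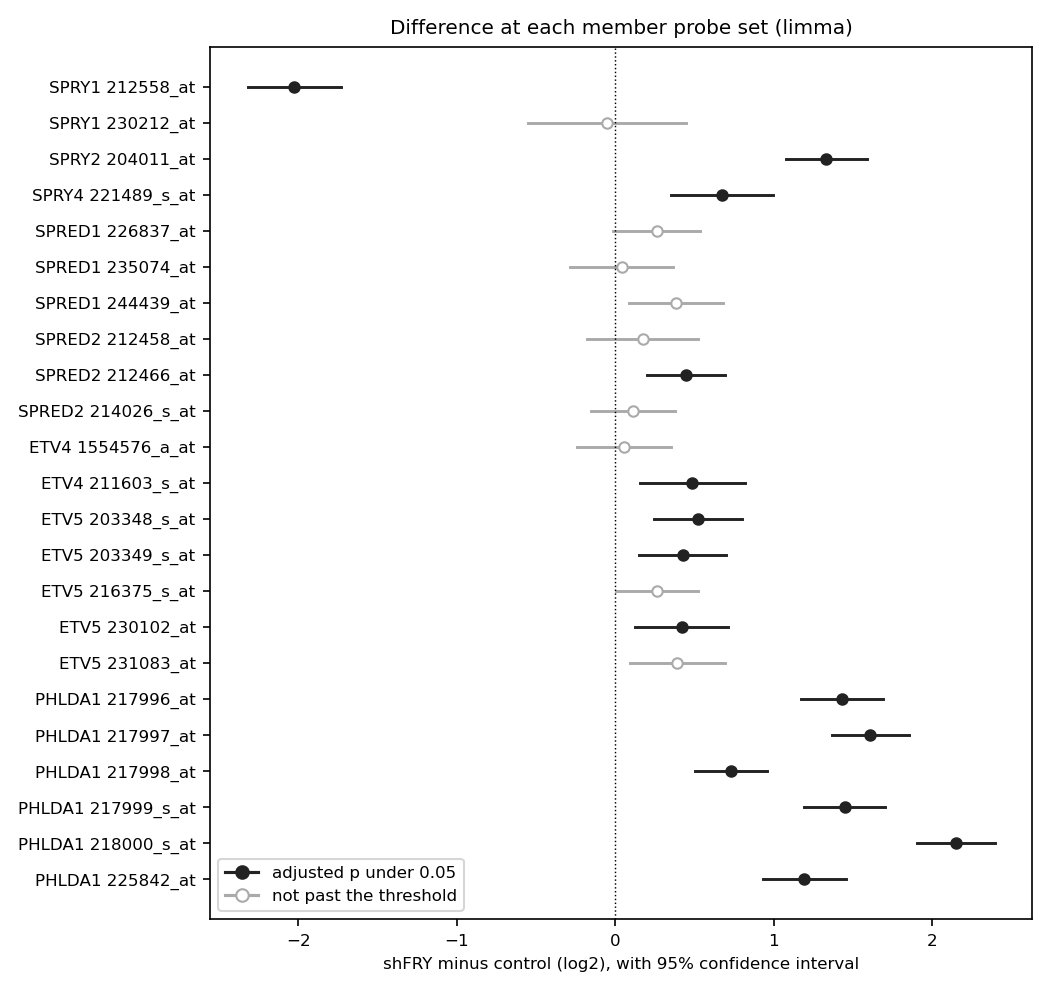
Difference, shFRY minus control, at each member probe set (horizontal axis, log2) with its 95% confidence interval from limma. Filled points passed an adjusted p of 0.05. SPRY1 at 212558_at stands at -2.03, the probe sets of PHLDA1 between 0.73 and 2.15, and those of SPRED1, SPRED2, ETV4 and ETV5 between 0.04 and 0.52.

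The rest of the pathway was mixed, with more rises than falls. Of 61 other genes of receptor tyrosine kinase, RAS and ERK signalling, 26 rose, against 13.7% of all genes, and 10 fell, against 16% of all (limma, 1 probe set per gene). The median difference was 0.27 in these genes, 0.45 in the 8 members and 0.03 in all 19775 genes. With the beta-actin covariate 9 of the 61 rose and 1 fell, as 1026 of all genes passed in place of 5889. Of the 61 genes, 58 were measured above the median probe set. In the separate fit of only those brighter probe sets, 26 of the 58 rose and 10 fell. There 5855 of 11859 genes passed in either direction. Another 8 genes of the list were not analysed here.

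Other feedback genes of the pathway included the widest rise. Of 6, 3 rose and 2 fell. DUSP5, a nuclear ERK phosphatase, had a mean log2 signal of 9.26 ± 0.18 in shFRY and 6.05 ± 0.07 in control samples (SD, n = 3 each; difference 3.21, limma adjusted p = 2.10e-06). The cytoplasmic ERK phosphatase gene DUSP6 (1.49) and the EGFR inhibitor gene ERRFI1 (0.94) rose as well. The 2 that fell, named outside the naming rule given below, were the phosphatase gene DUSP4 and IL17RD. They differed by -0.45 and -0.87 (limma adjusted p = 0.00643 and 0.0190), and neither kept its call with the beta-actin covariate. Among genes that ERK is known to induce, 6 of 9 rose and 1 fell. FOS rose by 1.82 and the ETS factor gene ETS1 by 1.46, whereas CCND1, which encodes cyclin D1, was at 7.32 ± 0.13 in shFRY and 8.67 ± 0.05 in control samples (SD, n = 3 each; difference -1.35, limma adjusted p = 6.53e-05).

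Receptor genes went both ways, 3 of 9 rising and 2 falling. MET, the receptor for hepatocyte growth factor, rose by 1.03, and ERBB3 (-1.83) and ERBB2 (-0.83) fell. Among 7 adaptor genes, which link receptors to RAS, 2 rose and 1 fell: the exchange factor gene SOS2 by 1.09 and GAB1 by 0.49, and GRB2 by -0.35. GAB1 passed at 1 of its 7 probe sets, and its average over them differed by 0.01. Of 3 RAS and RAS-GAP genes, RASA2 (0.55) and NF1 (0.43) rose and HRAS (-0.55) fell. NF1, which encodes neurofibromin, the partner of SPRED proteins, was measured by 1 probe set near the bottom of the array's range, at 2.11 ± 0.02 in shFRY and 1.69 ± 0.23 in control samples (SD, n = 3 each; limma adjusted p = 0.0363). Of 5 genes of the kinase cascade, MAP2K1, which encodes the ERK kinase MEK1, rose by 0.81 and the scaffold gene KSR1 by 0.39, and 0 fell. KSR1 passed at 0 of its 4 probe sets in the fit over all probe sets (235252_at, which represented it, at a limma adjusted p of 0.0598), and 213770_at differed by -0.41. Calls of several of these genes were lost in some fits with 1 sample left out. That of GRB2 was kept only without shFRY sample 3, that of NF1 only without control sample 2 and that of KSR1 only without shFRY sample 1. That of GAB1 was lost without shFRY sample 1 or control sample 1, that of RASA2 without shFRY sample 2 or control sample 1 or 3, and that of HRAS without control sample 3 (limma adjusted p of GRB2, NF1, KSR1, GAB1, RASA2 and HRAS up to 0.0882, 0.122, 0.140, 0.0639, 0.0597 and 0.0503).

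Among 7 genes for partners of Sprouty and SPRED proteins, 4 rose and 1 fell. CBL, the ubiquitin ligase that SPRY2 binds, rose by 0.78 and passed at all 5 of its probe sets. SIAH2 (0.56), a ubiquitin ligase that degrades Sprouty proteins, and TESK1 (0.55), a kinase that binds them, rose. Of 5 genes for regulators of PEA3 factors, 0 passed. The one with the smallest p was ATXN1 (0.40, limma adjusted p = 0.102), whose protein acts with the ETV4 and ETV5 repressor CIC. The ATXN1 gene passed without shFRY sample 3 (0.58, limma adjusted p = 0.0112) and as an average of its probe sets (0.35, limma adjusted p = 0.0181), and was at -0.13 without probe sets ending in _s_at or _x_at. Among 5 family members outside the 8, SPRED3 rose by 0.93, with low signals of 4.32 ± 0.36 in shFRY and 3.39 ± 0.14 in control samples (SD, n = 3 each), and ETV1, the remaining PEA3 factor, fell by 0.58. ETV1 passed at 1 of its 5 probe sets, and its average over them did not pass (-0.20, limma adjusted p = 0.105). Of 5 genes reported as targets of PEA3 factors, 3 rose and 1 fell. MMP9 (1.18) and MMP14 (0.82), which encode matrix proteases, rose, and the chemokine receptor gene CXCR4 fell (-2.61), at 1 of its 3 probe sets. With the beta-actin covariate, 7 of the 25 pathway genes that passed and were named by the rule kept their call. These were SOS2, DUSP5, DUSP6, FOS, ETS1, CCND1 and MMP9.

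**Figure D4:**
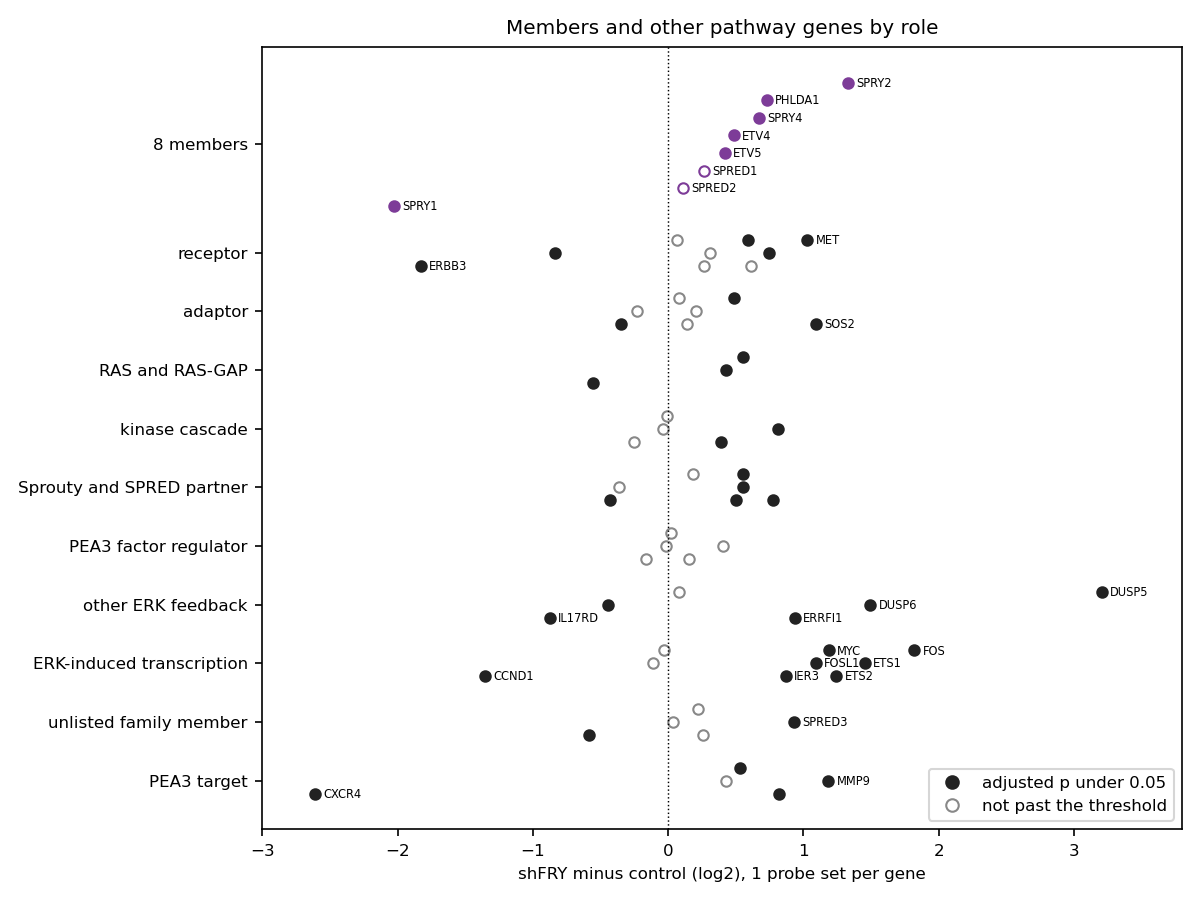
Difference, shFRY minus control (horizontal axis, log2, 1 probe set per gene), of the 8 members (purple) and 61 other pathway genes by role. Filled points passed an adjusted p of 0.05. SPRY1 stands at -2.03, with CXCR4 further left and ERBB3 and CCND1 to its right on the negative side. The other 7 members lie between 0.11 and 1.33.

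The genes whose 6 values were most like those of SPRY2, the member with the widest rise when the brightest probe set stands for each gene, were SAT1, MARK3 and IGF2BP2. With probe sets averaged the PHLDA1 gene rose by more (1.43, against 1.33 for SPRY2). After each gene's control mean was subtracted, their root mean square differences from SPRY2 over the 6 samples were 0.02, 0.06 and 0.06 (log2). SAT1, which encodes a polyamine acetyltransferase, had 11.76, 11.84 and 11.54 in shFRY and 10.37, 10.32 and 10.38 in control samples. Closest to SPRY1 were the noncoding RNA gene LNCAROD, NAT1, which encodes an arylamine acetyltransferase, and PPP6R2, a phosphatase subunit gene, at 0.09, 0.10 and 0.11. LNCAROD had 7.44, 7.21 and 7.15 in shFRY and 9.17, 9.47 and 9.49 in control samples.

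The settings divided the members into those whose gene-level call never changed and those whose call did. SPRY1 and SPRY2 passed in all 15 alternatives each. PHLDA1 passed in 14 of 15 and SPRY4 in 13 of 14, both failing with the beta-actin covariate. There the PHLDA1 gene differed by 0.75 (SE 0.19, limma adjusted p = 0.0729) and the SPRY4 gene by 0.74 (SE 0.28, limma adjusted p = 0.198). ETV5 was lost in 6 of 15 and ETV4 in 9 of 15. Among these, the ETV4 call was lost when its probe sets were averaged (0.27, limma adjusted p = 0.0964), and without probe sets ending in _s_at or _x_at, where 1554576_a_at stood for it (0.05). SPRED1 and SPRED2 did not pass in any alternative at the gene level.

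**Figure D5:**
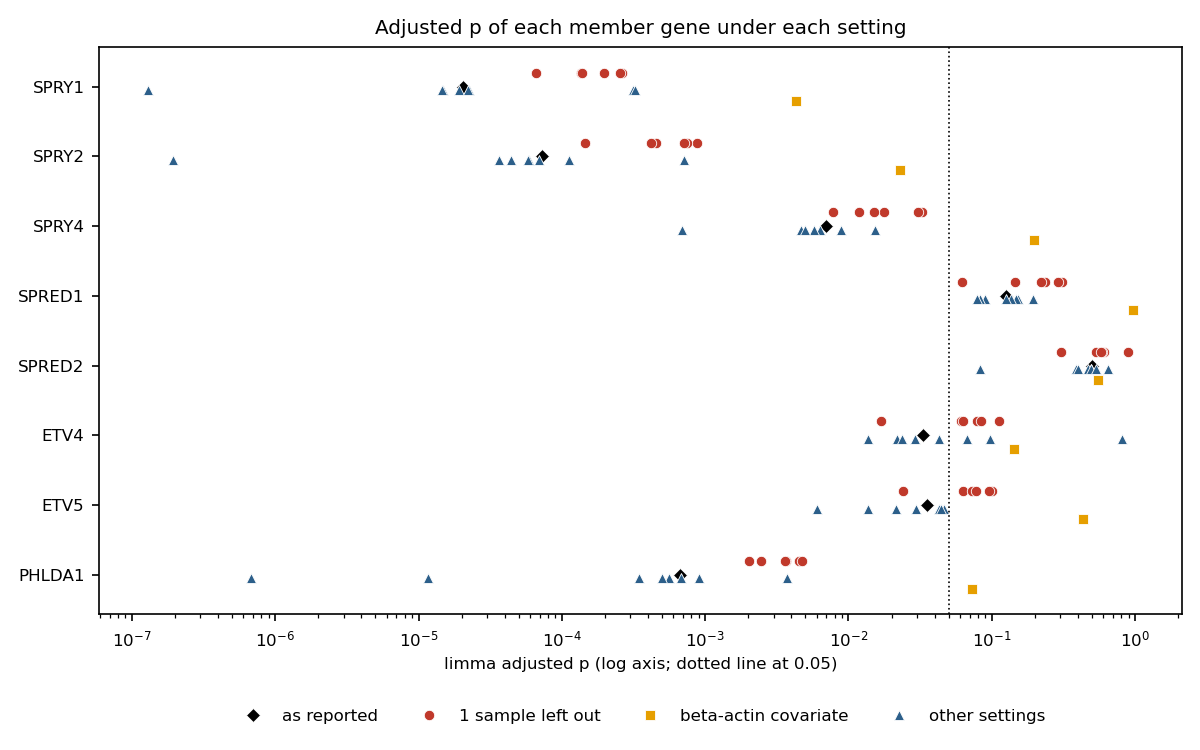
Limma adjusted p (horizontal log axis) of each member gene as reported (black diamonds), with 1 sample left out (red circles), with the beta-actin covariate (orange squares) and under the other settings (blue triangles). All points of SPRY1 and SPRY2 lie left of the threshold of 0.05, those of SPRED1 and SPRED2 lie right of it, and those of ETV4 and ETV5 lie on both sides.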

How the data were processed

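Each of the 6 RNA samples was hybridised to 1 array, and groups were taken from the sample titles. The log2 values were used as deposited. Per the submitters' processing notes the method was RMA; the version and settings used were not given in the sources used here. Quantile normalization, usual in RMA, hides any change common to every gene, and RMA compresses differences of dim probe sets. Sample medians lay between 3.02 and 3.06, and the number of arrays limits the precision.

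Probe sets were named through the platform annotation, with symbols updated by Entrez ID to RefSeq (41037 of 41091 with 1 symbol). limma 3.58.1 in R 4.3.3 compared shFRY with control over 54613 probe sets other than controls, and over 19775 genes, each by its probe set with the highest mean. The Benjamini-Hochberg adjustment ran over each whole table, and an adjusted p of 0.05 was the threshold. Values of member probe sets come from the probe set fit and those of other genes from the gene fit. The fits were tested on simulated data.

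The members, lists, alternatives and the naming rule were chosen with earlier results of these data known. The rule names all members, up to 3 genes past the threshold per pathway role (where none passed, that with the smallest p), and the 3 genes most like the widest rise and fall. Alternatives were median centring, another quantile normalization, trend and robust options, only the brighter probe sets, omission of _s_at and _x_at probe sets, averaged probe sets, array weights, the replicate number as a block, a beta-actin covariate and leaving out each sample.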

Additional observations from a re-analysis of the deposited data

How the results depend on the processing

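Over all alternatives for single members, 362 of 432 values kept their direction and their side of the threshold. Without _s_at and _x_at probe sets, 6 member probe sets and 3 member genes were higher and 0 FRY probe sets lower, as fewer probe sets were then tested (15 of 23 members). With the beta-actin covariate the counts were 6 and 1 higher and 0 FRY probe sets, and 9 pathway genes were higher and 1 lower. With 1 sample left out, member probe sets higher ranged from 8 to 12 and lower stayed at 1, member genes higher ranged from 3 to 4, and FRY probe sets lower from 0 to 2. Replicate numbers did not pair the samples (correlations of deviations between -0.0024 and 0.0068 for equal numbers). With the replicate number as a block, 10 member probe sets and 4 member genes were higher, 1 of each was lower, and 2 FRY probe sets were lower.

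Reversed differences, none of them past the threshold, were these. Omitting _s_at and _x_at probe sets put ATXN1 at -0.13, and there ETV4 minus ETV5 was at -0.37. With averaged probe sets, SPRED1 minus SPRED2 was at -0.015 and ETV4 minus ETV5 at -0.13. With array weights, 230212_at of SPRY1 was at 0.032 and 235074_at of SPRED1 at -0.0021. With the covariate, SPRED1 was at -0.028 (226837_at and the gene) and -0.064 (235074_at), and ETV4 at -0.079 (1554576_a_at). With 1 sample left out, 230212_at ranged from -0.31 to 0.15, 235074_at from -0.056 to 0.15 and 1554576_a_at from -0.043 to 0.15. The cause of these changes was not tested. Dim signals near the array's median limit what 230212_at, 235074_at and 1554576_a_at can show.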
